A study of Mus musculus with 18 samples.

Results

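The 8 genes described here encode the phagocyte NADPH oxidase, its proton channel and the inducible nitric oxide synthase. They were chosen by name, with earlier results of these data known, and they are 8 of the 49585 genes in the count table. Cybb (gp91phox, the catalytic subunit) and Cyba (p22phox, which stabilises it) form the membrane core of the oxidase. Ncf1 (p47phox) and Ncf4 (p40phox) are cytosolic subunits, Rac1 and Rac2 are the small GTPases that activate the complex, and Hvcn1 is the voltage-gated proton channel that carries protons out as the oxidase moves electrons across the membrane. Nos2 is the inducible nitric oxide synthase.

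The phagocyte oxidase passes electrons from NADPH to oxygen and makes superoxide, the start of the respiratory burst of neutrophils, monocytes and macrophages. At rest the cytosolic subunits are held apart from the membrane core, and phosphorylation of p47phox and loading of Rac with GTP bring them together. Nos2 makes nitric oxide from arginine and needs tetrahydrobiopterin as a cofactor, and in mouse macrophages its transcription is known to depend on interferon gamma and NF-kB signals. Rac2 is found mainly in blood cells, Rac1 in nearly all cells, and Hvcn1 is known from B cells as well as from phagocytes.

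RNA was sequenced from CD45+ leukocytes of Kaede mice aged 6 to 10 weeks, whose photoconvertible protein turns from green to red in light, so that red cells found later in a draining lymph node mark cells that left the lit tissue. All inflamed mice had received OT-II Th1 cells and an immunisation with ovalbumin in complete Freund's adjuvant before a challenge with 100 µg of heat-aggregated ovalbumin (HAO). Joint nonmigrated cells were recovered from ankle joints after a footpad challenge and joint migrated cells from the popliteal node, whereas skin nonmigrated cells came from the ear after an ear challenge and skin migrated cells from the auricular node. Joint steady state and skin steady state cells are labelled as leukocytes that migrated from joint or ear to a node. Their labels do not mention inflammation, whereas those of the other groups do. The joint steady state libraries carry PBS and the unexplained letters KG in their titles and the skin steady state libraries the word Naive, so their handling may have differed. The study's methods describe a PBS challenge after the same cell transfer and immunisation. The sources used here do not say separately that the steady state cells were red, so whether a difference between migrated and steady state cells compares cells that moved with cells already in the node cannot be told. Each of the 6 groups has 3 libraries made from pooled animals, so the spread given here is between pools. The sort gate is stated as viable CD45+ Kaede red+ cells, the day after photoconversion.

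Assigned counts per library ran from 35554698 to 43814403 in the inflamed joint groups, from 19239531 to 22528895 in the inflamed skin groups and from 28577566 to 42938378 at steady state. The inflamed skin libraries are all shallower than the others and their columns are named on another pattern, so they form a separate library series. Series cannot be told apart from site where they are set against joint libraries. Nor can it be told apart from inflammation between skin migrated and skin steady state cells, or in a difference of differences that uses this contrast. Ptprc, the gene of CD45, stood at 1156 to 2531 CPM in all libraries, where CPM is the usual depth-scaled count with libraries sized by the trimmed mean of M values (TMM). Skin nonmigrated replicate 3 stood apart from its group, with a summed level of 8 monocyte and macrophage markers of 6259 CPM, against 2638 and 3347 in the other replicates, and a summed level of 6 T cell markers of 292.5 CPM against 723 and 805.5. For the subunits Cybb, Cyba and Ncf1 and for Nos2, the comparisons of this group are given with and without it.

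Cybb lies at chrX:9435252-9487771 on the minus strand (mm10/GRCm38), Cyba at chr8:122424776-122432930 (minus), Ncf1 at chr5:134220053-134229625 (minus) and Ncf4 at chr15:78244801-78262580 (plus). Rac1 lies at chr5:143503634-143528036 (minus), Rac2 at chr15:78559167-78572783 (minus), Nos2 at chr11:78920787-78960254 (plus) and Hvcn1 at chr5:122206804-122242297 (plus). Whether the library kit marked strand is not given in the sources used here. For 3 of these genes it is therefore not known how reads on exon bases shared with an antisense neighbour were counted. Such reads may have been set aside in the summary row of ambiguous reads. Ncf1 shares 408 exon bases, 11.1% of its exon length, with Gtf2ird2, Rac1 shares 2309 bases (51.4%) with Daglb, and Hvcn1 shares 1574 bases (44.2%) with Tctn1. Daglb stood at 101.2 to 147.1 CPM in joint nonmigrated cells and at 8.19 to 75.0 CPM in the other groups, and Gtf2ird2 and Tctn1 did not exceed 34.5 and 28.9 CPM in any library.

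The 250 bases before the RefSeq start of Cybb and of Ncf1 (GRCm38.p6) are shown because these were the members whose difference between migrated and nonmigrated cells was called as unlike in joint and skin. Capitals mark matches to GAAA, any 2 bases and GAAA, or on the other strand TTTC, any 2 bases and TTTC, a pattern of the kind that interferon regulatory factors bind.
Cybb: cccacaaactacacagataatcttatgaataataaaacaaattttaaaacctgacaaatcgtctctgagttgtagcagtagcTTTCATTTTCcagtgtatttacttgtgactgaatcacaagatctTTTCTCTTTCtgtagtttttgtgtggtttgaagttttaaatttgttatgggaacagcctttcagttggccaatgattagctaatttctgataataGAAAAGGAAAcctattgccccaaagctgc
Ncf1: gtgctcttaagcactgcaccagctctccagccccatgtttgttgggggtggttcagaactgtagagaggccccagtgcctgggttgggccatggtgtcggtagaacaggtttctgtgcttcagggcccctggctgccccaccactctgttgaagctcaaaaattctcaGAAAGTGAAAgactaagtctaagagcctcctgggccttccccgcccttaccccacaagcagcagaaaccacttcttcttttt
The Cybb window is chrX:9469325-9469574 and the Ncf1 window chr5:134229626-134229875, both read from the minus strand. The Cybb window falls within the longer span that GENCODE release M21 gives the gene, and no annotated exon overlaps it. It holds the pattern at bases 29 to 20 before the start as GAAAAGGAAA, and on the other strand at bases 124 to 115 and 168 to 159. The Ncf1 window holds it as GAAAGTGAAA at bases 82 to 73 before the start. Of 32851 RefSeq windows of this length, 978 (2.98%) hold the pattern on either strand. The Cyba window, chr8:122432941-122433190, does not hold these letters, and GAGGAA, a core of the kind that PU.1 binds, is in none of the 3 windows and in 23.3% of all windows. The table has an entry for 3 of the 8 genes, and a match describes letters and not a bound site.

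Cells that stayed in the joint carried far more mRNA of the oxidase core and of Nos2 than cells that had left it. In joint migrated against joint nonmigrated cells, 5 of the 8 genes fell (Cybb, Cyba, Ncf1, Ncf4 and Nos2) and none rose, where 34.3% of the 16777 genes tested were called in either direction. Calls required a Benjamini-Hochberg adjusted p below 0.05 and a log2 fold change beyond 1 in either direction (edgeR). All 8 genes passed the filter on low counts. The comparisons share libraries and are not independent of each other. The median log2 fold change of the 8 genes was -1.61, against 0.02 over all genes tested. In skin migrated against skin nonmigrated cells 3 of the 8 fell (Cybb, Ncf4 and Nos2), where 35.4% of all genes were called, with a median of -0.64 over the 8 and 0.01 over all genes. The skin count is thus close to the share over all genes. Markers moved in the same comparisons. All 6 neutrophil markers and 7 of 8 monocyte and macrophage markers were lower in migrated cells at each site, with summed neutrophil levels of 4964 to 15250 CPM in joint nonmigrated against 33.2 to 86.1 CPM in joint migrated cells, and of 1419 to 2498 against 12.4 to 25.7 CPM in skin. All 6 B cell markers were higher in migrated cells at each site. T cell markers were higher in 6 of 6 in the joint and 4 of 6 in skin. Dendritic cell markers were split, with 3 higher and 1 lower in the joint and 3 higher and 4 lower in skin. All 4 fibroblast markers were lower at each site, with joint sums of 101.8 to 300.3 CPM against 0.903 to 1.92 CPM. Also lower were 2 of 4 eosinophil markers in the joint and 3 of 3 keratinocyte, 3 of 3 endothelium and 2 of 3 erythroid markers in skin. In bulk RNA fewer phagocytes and less mRNA per phagocyte cannot be told apart, and the part of these markers in the result was not tested.

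**Figure D1:**
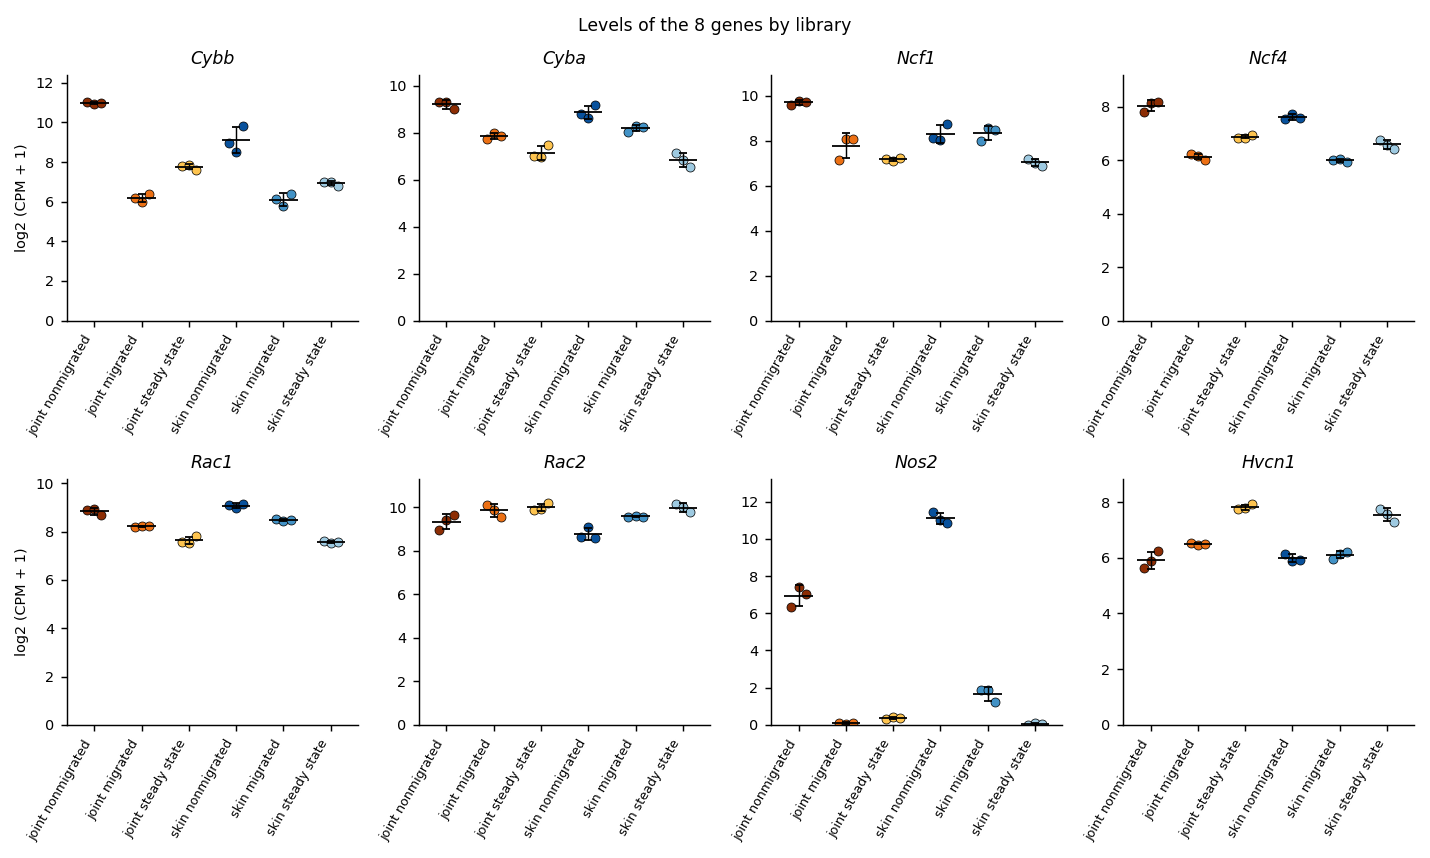
Level of each of the 8 genes in the 18 libraries, as log2 of CPM plus 1, in the 6 groups. Points are libraries, horizontal lines are group means and error bars are SD (n = 3). Nos2 is near 0 in the joint migrated and both steady state groups, and Cybb, Cyba, Ncf4 and Nos2 are higher in every nonmigrated library than in every migrated library of the same site.

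Cybb, the catalytic subunit, showed the widest range of the oxidase genes. It stood at 2086, 1932 and 2012 CPM in joint nonmigrated, at 72.6, 63.0 and 82.7 CPM in joint migrated and at 221.9, 232.9 and 196.0 CPM in joint steady state cells. In skin the levels were 502.9, 365 and 908.4 CPM in nonmigrated, 69.9, 53.6 and 83.1 CPM in migrated and 126.9, 127.3 and 111.6 CPM in steady state cells. The order of the group means was joint nonmigrated, skin nonmigrated, joint steady state, skin steady state, then both migrated groups, and the migrated groups were the only neighbours in that order whose libraries overlapped. Cybb fell 27.6-fold in migrated cells of the joint (log2 fold change -4.79, SE 0.32, adjusted p = 6.82e-07) and 8.61-fold in skin (-3.11, SE 0.30, adjusted p = 6.61e-06). Without skin nonmigrated replicate 3 the skin value was -2.65 (adjusted p = 1.53e-06). It was 3.39-fold higher in joint than in skin nonmigrated cells (log2 fold change 1.76, SE 0.28, adjusted p = 0.00125), where 14.3% of genes were called. Without that library the log2 fold change was 2.21 (adjusted p = 3.95e-05). The fold between joint and skin migrated cells had a 95% interval of -0.52 to 0.69 on the log2 scale, around an estimate of 0.08 (adjusted p = 0.915).

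The difference between the falls in joint and in skin was -1.68 on the log2 scale (SE 0.39, adjusted p = 0.0251), a difference of differences for which 6.13% of genes were called. Leaving out skin nonmigrated replicate 3, the library with the highest Cybb in its group, gave -2.13 (adjusted p = 0.00056). The call was lost when joint nonmigrated replicate 1 or 2, joint migrated replicate 2, skin nonmigrated replicate 1 or skin migrated replicate 1 or 3 was left out, with adjusted p between 0.0501 and 0.0729. In the same difference of differences, no neutrophil marker and no monocyte or macrophage marker was called, 2 of 4 eosinophil and 3 of 6 B cell markers were lower, and 4 of 7 dendritic cell, 2 of 6 T cell and 2 of 3 endothelium markers were higher. Between the nonmigrated groups themselves, monocyte and macrophage sums were 5380 to 7454 CPM in joint and 2638 to 6259 CPM in skin, with none of 8 markers called. Higher in joint were 4 of 6 neutrophil, 2 of 4 eosinophil and 6 of 6 B cell markers. Lower in joint were 5 of 6 T cell, 4 of 7 dendritic cell, 3 of 3 keratinocyte and 2 of 3 endothelium markers. The part of these markers in the Cybb differences was not tested.

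Cybb was also lower in migrated than in steady state cells. It was 2.91-fold lower in joint migrated than in joint steady state cells (log2 fold change -1.54, SE 0.14, adjusted p = 1.47e-06), where 24.2% of 17107 genes tested were called. In skin migrated cells it was lower than in skin steady state cells by a smaller amount (-0.79, SE 0.14, adjusted p = 0.000305), short of the fold limit, where 36.5% of genes were called. Joint and skin steady state cells differed by 0.82 (SE 0.14, adjusted p = 0.00268), also short of it. Neutrophil sums in the joint moved the same way, at 398.4 to 790.5 CPM in steady state against 33.2 to 86.1 CPM in migrated cells, and B cell sums fell from 4675 to 4959 CPM to 846 to 1125 CPM. Monocyte and macrophage markers went the other way, with 3 of 8 higher and 1 lower in joint migrated and 8 of 8 higher in skin migrated cells, where 1 of 6 neutrophil markers was higher and 6 of 6 B cell markers were lower. Dendritic cell markers were higher in 5 of 7 at each site. The part of these cells in these and the following comparisons with steady state was not tested. In skin, library series and inflammation cannot be told apart in any of these comparisons.

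Cyba, the p22phox partner without which gp91phox is unstable, was also highest in nonmigrated cells. It stood at 637.7, 634.9 and 512.1 CPM in joint nonmigrated, 215.1, 251.5 and 231.6 CPM in joint migrated and 126.6, 125.5 and 179.8 CPM in joint steady state cells. Skin values were 448.7, 397.9 and 578.2 CPM in nonmigrated, 263.1, 316.1 and 301.7 CPM in migrated and 138.7, 113.5 and 91.7 CPM in steady state cells. Within each site the 3 groups did not overlap, and the order was nonmigrated, migrated, steady state. Cyba fell 2.55-fold in migrated cells of the joint (log2 fold change -1.35, SE 0.15, adjusted p = 2.03e-05), and the difference in skin, -0.70 (SE 0.15, adjusted p = 0.00203), was short of the fold limit, and was -0.53 (adjusted p = 0.00675) without skin nonmigrated replicate 3. The difference between the falls at the sites was -0.66 (SE 0.21, adjusted p = 0.08) and was not called. Without skin nonmigrated replicate 3 it was -0.82 (adjusted p = 0.00998), under the fold limit. In skin migrated cells Cyba rose 2.62-fold over skin steady state (1.39, SE 0.17, adjusted p = 7.77e-06), as did all 8 monocyte and macrophage markers and 5 of 7 dendritic cell markers, and the same difference in the joint was 0.72 (SE 0.16, adjusted p = 0.00234). Between joint and skin nonmigrated cells the difference in Cyba was 0.32 with a 95% interval of -0.01 to 0.65 (adjusted p = 0.129), and it was 0.49 (adjusted p = 0.0173) without that library, under the fold limit.

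The differences of Cybb and Cyba between migrated and steady state cells were opposite in sign, and both were called at no single site. Per kilobase of exon (RPKM), Cybb stood at 0.611 ± 0.082 (SD, n = 3) of Cyba in joint nonmigrated cells, 0.0564 ± 0.010 in joint migrated and 0.280 ± 0.074 in joint steady state cells. In skin the ratio was 0.215 ± 0.060 in nonmigrated, 0.0424 ± 0.010 in migrated and 0.194 ± 0.028 in steady state cells. In each site the migrated libraries had the lowest ratios, without overlap with the other groups of that site.

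Ncf1, the p47phox organiser subunit, separated the sites. It stood at 772.3, 879.4 and 858.7 CPM in joint nonmigrated cells and at 274.7, 261 and 433.7 CPM in skin nonmigrated cells. Migrated cells had 139.3, 273.1 and 272.3 CPM in the joint and 252.6, 376.2 and 353.0 CPM in skin, and steady state cells 138.2 to 147.5 and 118.0 to 145.5 CPM. Joint nonmigrated libraries were above all others, and the skin migrated and skin nonmigrated libraries overlapped. Ncf1 fell 3.66-fold in migrated cells of the joint (log2 fold change -1.87, SE 0.27, adjusted p = 0.000143), and in skin the difference was 0.02 with a 95% interval of -0.57 to 0.60 (adjusted p = 0.965), or 0.29 (adjusted p = 0.37) without skin nonmigrated replicate 3.

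The difference between those effects of -1.89 (SE 0.38, adjusted p = 0.0131) was called, and it was -2.16 (adjusted p = 0.00225) without skin nonmigrated replicate 3. Joint migrated replicate 1 was the low library of its group, and without it the difference was -1.61 (adjusted p = 0.0147). Between the nonmigrated groups Ncf1 was 2.59-fold higher in joint (1.37, SE 0.27, adjusted p = 0.00395), with 1.64 (adjusted p = 0.000971) without skin nonmigrated replicate 3. The markers that moved in these comparisons are those given for Cybb. Skin migrated cells had 2.56-fold more Ncf1 than skin steady state cells (1.36, SE 0.22, adjusted p = 0.000107), beside the same rise of monocyte, macrophage and dendritic cell markers, and in the joint the difference was 0.71 (SE 0.21, adjusted p = 0.014), with overlapping libraries.

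Ncf4, the p40phox subunit that binds a membrane lipid of the phagosome, fell at both sites by similar amounts. It stood at 221.1, 278.3 and 291.9 CPM in joint nonmigrated, 73.8, 71.2 and 63.7 CPM in joint migrated and 113.7, 113.9 and 121.9 CPM in joint steady state cells. In skin it stood at 185.6, 213.3 and 189.2 CPM in nonmigrated, 63.3, 65.3 and 59.4 CPM in migrated and 107.1, 94.9 and 85.2 CPM in steady state cells. The 3 groups of each site did not overlap, and as with Cybb the migrated cells were lowest. The fall was 3.79-fold in the joint (log2 fold change -1.92, SE 0.12, adjusted p = 4.71e-07) and 3.14-fold in skin (-1.65, SE 0.12, adjusted p = 1.08e-06). The difference between the falls was -0.27 with a 95% interval of -0.64 to 0.09 (adjusted p = 0.327). Joint and skin nonmigrated cells differed by 0.42 (SE 0.12, adjusted p = 0.0213), and migrated cells differed from steady state cells by -0.71 in the joint and -0.58 in skin on the log2 scale, all under the fold limit.

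Per kilobase, Ncf1 exceeded Ncf4 in migrated cells, at 1.84 ± 0.70 times its level in the joint and 2.88 ± 0.59 in skin, and lay below it at steady state, at 0.677 ± 0.015 and 0.754 ± 0.0090. In nonmigrated cells the ratio was 1.76 ± 0.15 in the joint and 0.918 ± 0.31 in skin.

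The GTPases differed by less, and with opposite signs. Rac1 stood at 477.0, 487.3 and 410.7 CPM in joint nonmigrated, 289.6, 299.8 and 300.5 CPM in joint migrated and 181.3 to 222.9 CPM in joint steady state cells. In skin it stood at 543.8, 496.7 and 572.2 CPM in nonmigrated, 369.1, 349.0 and 355.0 CPM in migrated and 185.9 to 196.7 CPM in steady state cells. The order nonmigrated, migrated, steady state held without overlap at both sites. The differences between migrated and nonmigrated cells were -0.63 (SE 0.10, adjusted p = 0.000284) in the joint and -0.59 (SE 0.10, adjusted p = 0.000427) in skin, and those between migrated and steady state cells were 0.61 (adjusted p = 0.000114) and 0.94 (adjusted p = 1.46e-06). None passed the fold limit, and how the exon bases shared with Daglb affect these counts is not known.

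Rac2 was the most abundant of the 8 genes in CPM in all migrated and steady state groups, and the lowest values were in cells that stayed in skin. It stood at 503.6, 691.8 and 789.4 CPM in joint nonmigrated and 1114, 936.5 and 757.9 CPM in joint migrated cells, which overlapped. Skin nonmigrated libraries had 394.0, 541.8 and 384 CPM and skin migrated libraries 760.9, 787.7 and 743.3 CPM, which did not overlap. Steady state cells had 928.2 to 1172 CPM in the joint and 870.0 to 1150 CPM in skin. The migrated cells were higher than nonmigrated cells by 0.50 (SE 0.20, adjusted p = 0.0479) in the joint and 0.79 (SE 0.20, adjusted p = 0.00503) in skin on the log2 scale, short of the fold limit. Rac2 was not called in any comparison.

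The balance of the GTPases per kilobase shifted with compartment. Rac1 levels use its whole exon length, of which 51.4% is shared with Daglb, whereas Rac2 shares none. If reads on the shared bases were not counted, the ratios given here are too high. Rac2 stood at 1.201 ± 0.331 (SD, n = 3) times Rac1 in skin nonmigrated and 2.12 ± 0.63 in joint nonmigrated cells. It stood at 3.10 ± 0.15 in skin migrated and 4.58 ± 0.96 in joint migrated cells, and at 7.74 ± 0.96 and 7.49 ± 0.43 in skin and joint steady state cells. Libraries of the 3 compartments did not overlap at either site. T cell marker sums were 168.1 to 805.5 CPM in nonmigrated and 1343 to 2053 CPM in migrated and steady state libraries. In the joint the migrated and steady state sums overlapped, at 1343 to 1789 and 1458 to 1769 CPM. B cell sums in the joint were 121.5 to 291.8 CPM in nonmigrated, 846 to 1125 in migrated and 4675 to 4959 in steady state cells, and had the same order in skin. The part of these markers in the ratio was not tested.

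Hvcn1, the proton channel, was highest at steady state, where B cell and endothelium marker sums were also highest. It stood at 216, 218.1 and 240.5 CPM in joint steady state and 216.4, 187.3 and 156.7 CPM in skin steady state cells. Joint migrated libraries had 91.2, 88.0 and 89.9 CPM and skin migrated libraries 61.4, 70.2 and 73.4 CPM, below every steady state library. Joint nonmigrated libraries had 48.1, 58.1 and 74.2 CPM and skin nonmigrated libraries 69.5, 58.3 and 59.1 CPM, and both overlapped with skin migrated cells. Hvcn1 fell 2.45-fold from steady state to migrated cells in the joint (log2 fold change -1.29, SE 0.11, adjusted p = 7.77e-07) and 2.67-fold in skin (-1.42, SE 0.11, adjusted p = 1.88e-07).

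The B cell sums were 3034 to 4959 CPM at steady state, 846 to 1125 CPM in joint migrated and 156.1 to 260.8 CPM in skin migrated cells, with all 6 markers called lower in migrated cells at both sites. Their part in the Hvcn1 result was not tested. Between migrated and nonmigrated cells Hvcn1 differed by 0.58 (SE 0.15, adjusted p = 0.00521) in the joint, under the fold limit, and by 0.13 with a 95% interval of -0.19 to 0.45 (adjusted p = 0.473) in skin. Between joint and skin nonmigrated cells the difference was -0.05 with a 95% interval of -0.37 to 0.26 (adjusted p = 0.805). B cell markers did differ there, with 6 of 6 called higher in joint and sums of 121.5 to 291.8 against 10.8 to 25.1 CPM. In skin 6 of 6 B cell markers were also called higher in migrated than in nonmigrated cells. The oxidase subunits and their proton channel were therefore not highest in the same groups.

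**Figure D2:**
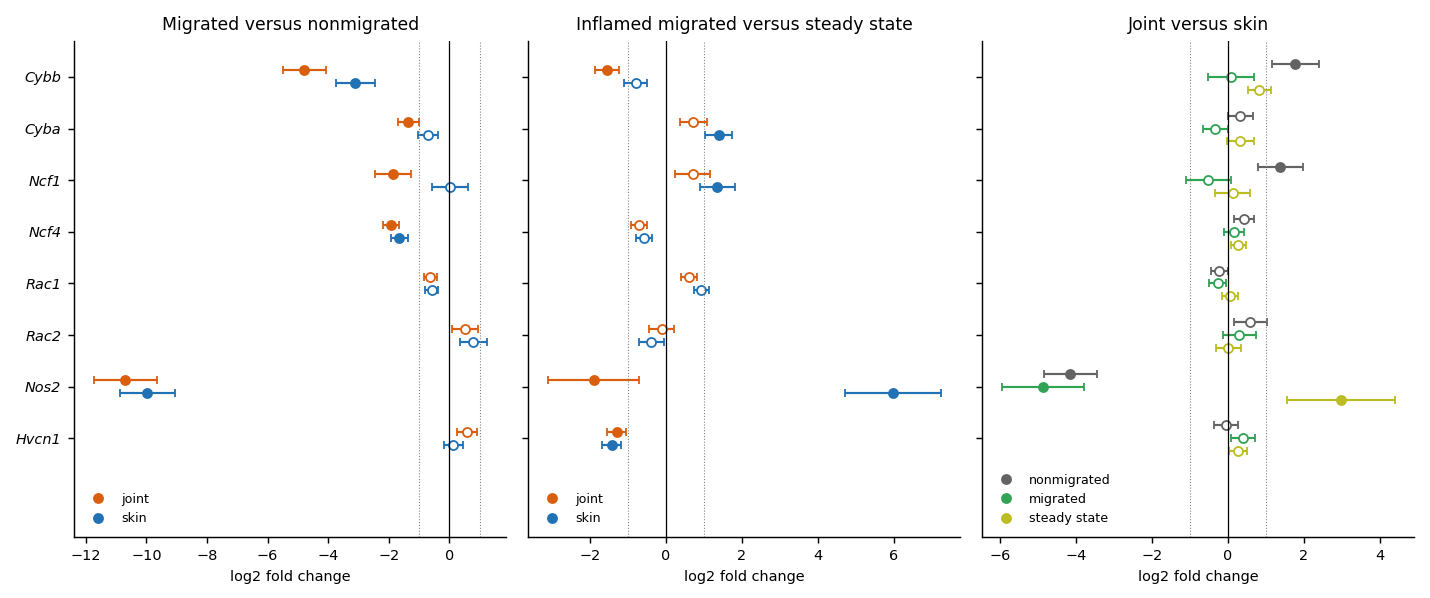
Log2 fold change of each gene with its 95% interval in the 7 pairwise comparisons, from edgeR. Filled points were called, with an adjusted p below 0.05 and a change beyond the dotted lines at 1 and -1, and open points were not. Nos2 lies near -10 in both migrated against nonmigrated comparisons, Rac1 and Rac2 lie inside the dotted lines throughout, and Hvcn1 is filled only against steady state.

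Nos2 had the largest log2 fold changes of the 8 genes in all 7 pairwise comparisons, and was called in each. It stood at 79.2, 171.1 and 131.7 CPM in joint nonmigrated cells and at 2796, 2074 and 1868 CPM in skin nonmigrated cells. In joint migrated cells the libraries held 4, 2 and 4 counts, a total of 10, and in skin migrated cells 58, 53 and 31 counts, or 2.70, 2.65 and 1.37 CPM. Joint steady state libraries held 10, 14 and 13 counts (0.22 to 0.34 CPM) and skin steady state libraries 0, 3 and 1. Libraries of different groups did not overlap, apart from joint migrated with skin steady state cells.

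Nos2 fell in migrated cells of both sites, with log2 fold changes of -10.70 in the joint (SE 0.48, adjusted p = 8.2e-08) and -9.98 in skin (SE 0.41, adjusted p = 2.68e-08), or -10.09 in skin without skin nonmigrated replicate 3. The joint value rests on 10 counts in the migrated group, and the ratio of counts scaled to depth was 1718, with a 95% interval from counting error alone of 934 to 3583. In skin that ratio was 1004 (852 to 1192). The difference between the falls was -0.72 with a 95% interval of -2.04 to 0.59 (adjusted p = 0.474), so the data set no direction for it.

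Between the sites Nos2 was 17.7-fold lower in joint than in skin nonmigrated cells (log2 fold change -4.14, SE 0.31, adjusted p = 2.94e-05) and 29.2-fold lower in joint than in skin migrated cells (-4.87, SE 0.49, adjusted p = 0.0018). Only 1.14% of genes were called between the migrated groups, and Nos2 was the only one of the 8. Skin nonmigrated replicate 3 held the lowest Nos2 of its group, and without it the difference between nonmigrated groups was -4.26 (adjusted p = 8.98e-06). Between the nonmigrated groups, where 14.3% of all genes were called, no monocyte or macrophage marker was called. As with Nos2, 5 of 6 T cell, 4 of 7 dendritic cell, 3 of 3 keratinocyte and 2 of 3 endothelium markers were lower in joint. Higher in joint were 4 of 6 neutrophil, 2 of 4 eosinophil and 6 of 6 B cell markers. Keratinocyte sums were 0.299 to 1.78 CPM in joint and 23.3 to 271.7 CPM in skin nonmigrated cells. The part of these markers was not tested. In migrated cells the monocyte and macrophage sums were 478 to 605 CPM in the joint and 546 to 714 CPM in skin, with no marker called. Called higher in joint migrated cells were 6 of 6 B cell markers and 1 of 6 neutrophil markers. The B cell sums were 846 to 1125 CPM in the joint and 156.1 to 260.8 CPM in skin. No marker of another type was called between migrated groups, and the part of these markers was not tested. The inflamed skin libraries form their own series, and site and series cannot be told apart for these values.

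The steady state groups gave Nos2 at or near the floor. It rose in skin migrated against skin steady state cells by 5.97 on the log2 scale (SE 0.59, adjusted p = 1.26e-06), which rests on 142 against 4 counts and a ratio scaled to depth of 66.8 (25.5 to 248.4). Monocyte and macrophage markers (8 of 8) and dendritic cell markers (5 of 7) were higher in the same comparison. In the joint it went the other way, lower in migrated cells (-1.90, SE 0.56, adjusted p = 0.0124), on 10 against 37 counts, with joint steady state 3.91 times higher (1.91 to 8.82). The difference of these differences, tested after the values were seen, was -7.87 (SE 0.82, adjusted p = 0.000108), where 6.11% of genes were called. In that test 6 of 8 monocyte and macrophage and 5 of 6 neutrophil markers were also lower, and 6 of 6 B cell markers higher. Joint steady state was above skin steady state by 2.97 (SE 0.66, adjusted p = 0.0139), on 37 against 4 counts and a ratio of 8.52 (3.06 to 32.9), where 3.89% of genes were called, and that call was lost without joint steady state replicate 2 (adjusted p = 0.0503) or skin steady state replicate 3 (adjusted p = 0.06). Neutrophil sums were also higher in joint than skin steady state cells, at 398.4 to 790.5 against 10.7 to 17.5 CPM, with Ly6g at the floor in skin, and 5 of 8 monocyte and macrophage markers were higher. The part of these markers in the Nos2 differences was not tested.

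The ratio of Nos2 to Cybb, per kilobase, set the sites apart among cells that stayed in the tissue. It was 0.04998 to 0.117 in joint nonmigrated and 2.71 to 7.49 in skin nonmigrated libraries. The lowest of these skin values was replicate 3. Thus Cybb exceeded Nos2 in every joint nonmigrated library and Nos2 exceeded Cybb in every skin nonmigrated library.

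**Figure D3:**
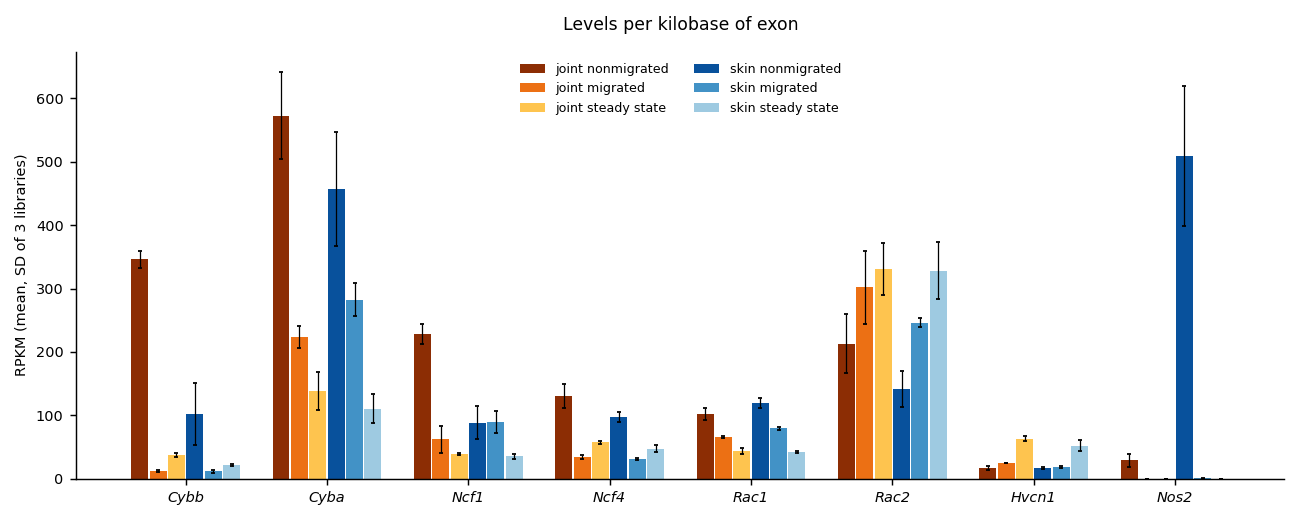
Levels of the 8 genes in RPKM (CPM per kilobase of exon, TMM scaled) in the 6 groups. Bars are means of 3 libraries and error bars are SD. Cyba, at 573 RPKM, has the highest mean of the 8 genes in joint nonmigrated cells. Nos2, at 509 RPKM, has the highest mean in skin nonmigrated cells, where its error bar overlaps that of Cyba.

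Compared per length, Cyba was the most abundant of Cybb, Cyba, Ncf1 and Ncf4 in every group, at 573 ± 69 RPKM (SD, n = 3) in joint nonmigrated and 457 ± 89 in skin nonmigrated cells. In joint nonmigrated cells Cybb came next at 346 ± 13, then Ncf1 at 228 ± 16 and Ncf4 at 131 ± 19. In skin nonmigrated cells the subunits below Cyba lay close together, at 102 ± 49 for Cybb, 97.1 ± 7.5 for Ncf4 and 88.2 ± 26 for Ncf1, within their spread. Nos2 stood at 28.9 ± 10 RPKM in joint nonmigrated and 509 ± 111 in skin nonmigrated cells. In migrated and steady state cells Rac2 was the highest of the 8 genes except in skin migrated cells, where Cyba, at 283 ± 26, and Rac2, at 246 ± 7.2, were the top 2.

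Of 13 further genes of the oxidase and synthase families in the table, 5 passed the filter on low counts in each fit. Cybc1, a chaperone of the gp91phox and p22phox pair, was not called in any comparison, with differences of -0.45 and -0.31 between migrated and nonmigrated cells.

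The other synthases were scarce. Nos1, the neuronal enzyme, was higher in migrated cells by 3.18 in the joint (adjusted p = 0.000102) and 2.73 in skin (adjusted p = 0.000464), on 320 against 25 and 128 against 16 counts. Nos3, the endothelial enzyme, was lower, at -2.82 (adjusted p = 0.00273) and -3.88 (adjusted p = 0.00352), on 14 against 74 and 2 against 28 counts. Nox1 was lower in skin migrated than in skin steady state cells, on 11 against 112 counts (-2.38, adjusted p = 0.000677). Noxo1 stayed near 1 CPM in all groups and was not called, Nox3 had no count in any library, and Nox4, Noxa1, Duox1, Duox2, Duoxa1 and Duoxa2 did not pass the filter.

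Genes that feed or switch on the oxidase were described from lists. Of 10 genes that supply NADPH, 6 were lower and none higher in joint migrated against nonmigrated cells, and 4 were lower and none higher in skin, against 34.3% and 35.4% of all genes called, so that the skin count is close to the share over all genes. The list's medians were -1.21 and -0.58. Pgd and G6pdx, the NADPH-making dehydrogenases of the pentose phosphate pathway, fell at both sites, by log2 fold changes of -2.73 (SE 0.13) and -2.62 (SE 0.19) in the joint and -2.27 (SE 0.13) and -1.49 (SE 0.19) in skin. G6pdx stood at 255.5 to 351.2 CPM in joint nonmigrated, 112.8 to 192.2 CPM in skin nonmigrated and 46.7 to 56.5 CPM in migrated libraries. Taldo1, of the same pathway, fell at both sites (-1.29 and -1.42). Against steady state, Idh1, a cytosolic NADPH-making enzyme, rose by 2.81 in the joint and 3.93 in skin, from 5.07 to 10.9 CPM to 41.2 to 100.8 CPM.

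Of 18 activators and GTPase regulators, 2 were higher and 6 lower in migrated cells of the joint and 3 higher and 5 lower in skin, against 34.3% and 35.4% of all genes called, with medians of -0.38 and -0.41. Prkcd, a protein kinase C that phosphorylates p47phox, fell in the joint (-1.71, SE 0.16) and in skin (-1.16, SE 0.16). Vav3, a Rac exchange factor, fell in the joint (-1.95, SE 0.18) and in skin (-2.07, SE 0.19), as did Pla2g4a, which releases arachidonic acid (-3.33, SE 0.35, and -3.99, SE 0.36). Prkca, another protein kinase C, rose by 2.42 (SE 0.24) and 1.70 (SE 0.24), and Prex1, a Rac exchange factor, rose by 1.33 (SE 0.18) in the joint. Against steady state 3 were higher and 1 lower in the joint and 4 higher and 1 lower in skin, against 24.2% and 36.5% of all genes called. Tiam1, also a Rac exchange factor, was higher than at steady state by 1.89 and 1.97 and lower in migrated than nonmigrated cells (-1.35 in the joint and -1.22 in skin). Pla2g4a was likewise higher in skin migrated than skin steady state cells (3.64, SE 0.35).

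Of the enzymes that use superoxide or hydrogen peroxide, 3 of 6 were lower in migrated cells of the joint, and 1 was higher and 1 lower in skin, against 34.3% and 35.4% of all genes called. Sod2, the mitochondrial superoxide dismutase, fell in the joint (-2.04, SE 0.097) and in skin (-2.72, SE 0.10). Mpo and Epx, the peroxidases of neutrophils and eosinophils, were the others in the joint, where all 6 neutrophil and 2 of 4 eosinophil markers, Epx itself among them, were lower. Catalase (Cat) rose by 1.21 (SE 0.21) in skin migrated cells.

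Genes of the arginine and tetrahydrobiopterin supply of Nos2 were mixed. Of 13 tested, 1 was higher and 3 lower in migrated cells of the joint and 2 higher and 3 lower in skin, with medians of 0.11 and -0.03. These shares are close to the 34.3% and 35.4% called over all genes. Slc7a2, an arginine transporter, stood at 302.4, 201.4 and 291.7 CPM in joint nonmigrated and 844.4, 387.7 and 422.4 CPM in skin nonmigrated cells. In migrated cells it stood at 0.09 to 0.69 and 1.00 to 2.93 CPM, and skin steady state libraries held at most 1 count. It fell in the joint (-9.72, SE 0.66, adjusted p = 7.34e-07) and in skin (-8.15, SE 0.60, adjusted p = 1.08e-06), and between nonmigrated groups it differed by -1.06 (adjusted p = 0.0871), unlike Nos2 not past the threshold. That the 2 genes differed in their joint-skin contrast was not tested.

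Gch1, the first enzyme of tetrahydrobiopterin synthesis, fell in the joint (-1.06, SE 0.19, adjusted p = 0.00063) and in skin (-1.83, SE 0.20, adjusted p = 1.54e-05). Ass1, which remakes arginine from citrulline, stood at 121.4, 148.3 and 131.8 CPM in joint nonmigrated and 501.0, 447.4 and 360.7 CPM in skin nonmigrated cells. It fell in migrated cells of skin (-1.12, SE 0.14, adjusted p = 5.31e-05) and was 0.39 (SE 0.14, adjusted p = 0.0361) higher in those of the joint, under the fold limit, and the difference between sites of 1.502 was called (SE 0.201, adjusted p = 0.0022). Ddah1 was lower in migrated cells of the joint, where it had no count against 39. In skin it was not called, with 63 counts in migrated cells (2 to 43 by library) against 20 in nonmigrated cells. Against steady state 6 of 12 tested genes of this list were higher and none lower in the joint, and 7 were higher and 1 lower in skin, against 24.2% and 36.5% of all genes called, with medians of 1.11 and 1.57. Nostrin, a trafficking partner of Nos3, rose from 0.22 to 0.58 CPM to 31.4 to 91.5 CPM over both sites.

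**Figure D4:**
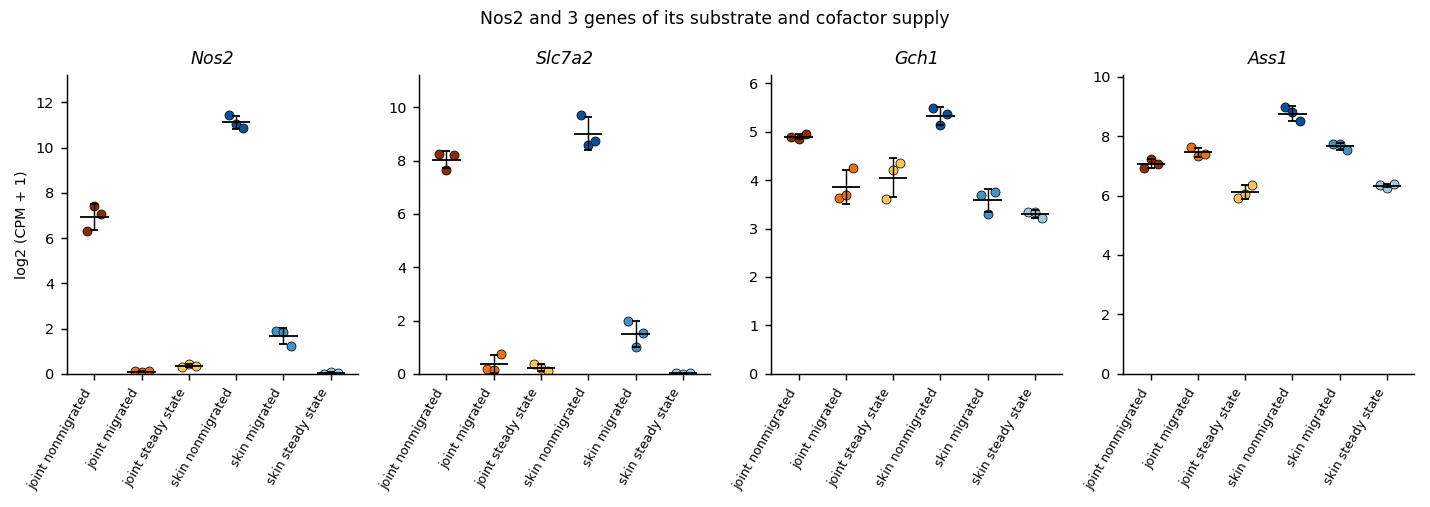
Levels of Nos2, Slc7a2, Gch1 and Ass1 by library, as log2 of CPM plus 1. Points are libraries, lines are group means and error bars are SD (n = 3). Nos2, Slc7a2 and Gch1 are higher in all nonmigrated libraries than in all migrated libraries, and Ass1 is highest in the 3 skin nonmigrated libraries.

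Of 10 interferon gamma and NF-kB inputs to Nos2, 4 were lower in joint than in skin nonmigrated cells and none higher, against 14.3% of all genes called in either direction, with a median of -0.79 against 0.01 over all genes. Ifng (-1.67, adjusted p = 0.0371), Irf1 (-1.35, adjusted p = 0.000299) and Jak2 (-1.33, adjusted p = 0.00139) were among them. Irf1 stood at 252 to 285.6 CPM in joint nonmigrated and 592.9 to 845.4 CPM in skin nonmigrated cells. Ifng stood at 9.82, 16.8 and 27.4 CPM in joint nonmigrated and 60.5, 96.0 and 14.9 CPM in skin nonmigrated cells. Skin nonmigrated replicate 3 fell within the joint values for Ifng and outside them for Irf1. T cell sums were 168.1 to 335.5 CPM in joint and 292.5 to 805.5 CPM in skin nonmigrated cells, lowest in that same library, and 5 of 6 T cell markers were called lower in joint.

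Against steady state, Ifng rose by 2.87 (SE 0.19) in joint migrated and 3.18 (SE 0.19) in skin migrated cells, and Jak2, a kinase of its receptor, by 1.81 (SE 0.15) and 2.35 (SE 0.15). Between migrated and nonmigrated cells 1 of the 10 inputs was higher and 1 lower in the joint, and 1 was lower in skin. These shares are below the 34.3% and 35.4% of all genes called. Jak2 rose in the joint (1.14, SE 0.22, adjusted p = 0.000876), and Ifngr2, a chain of the interferon gamma receptor, fell at both sites, with log2 fold changes of -1.35 (SE 0.19) in the joint and -1.01 (SE 0.19) in skin.

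**Figure D5:**
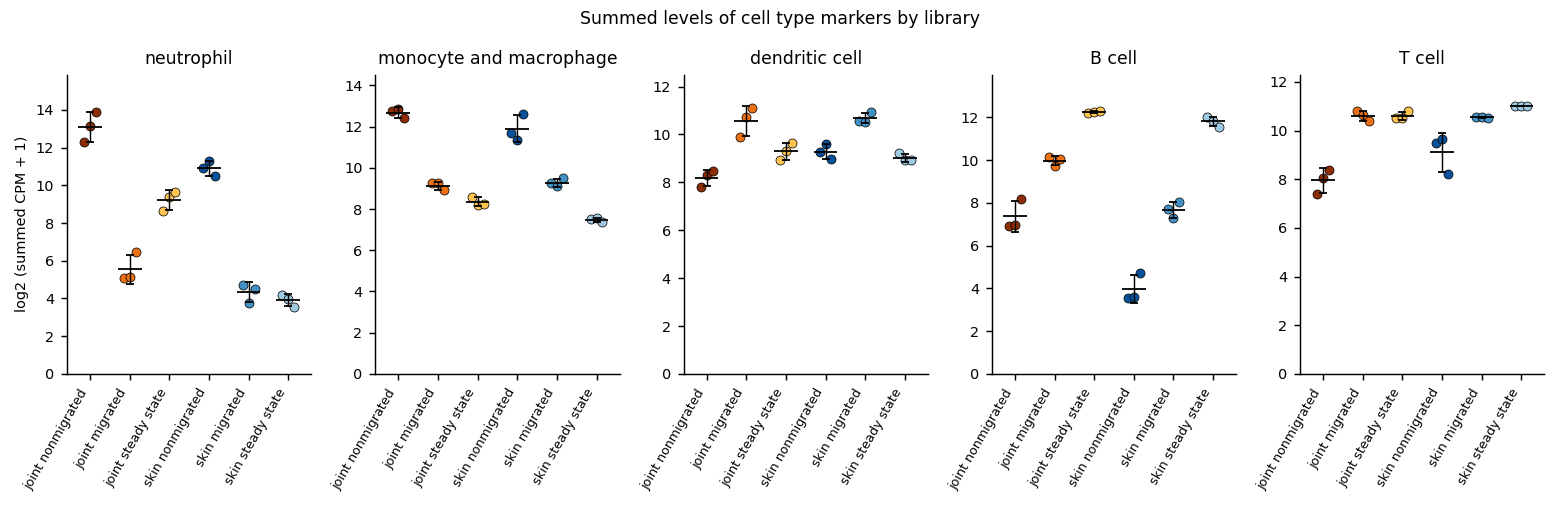
Summed levels of markers of 5 leukocyte types by library, as log2 of summed CPM plus 1. Points are libraries, lines are group means and error bars are SD (n = 3). Neutrophil and monocyte and macrophage sums are higher in every nonmigrated than in every migrated library of the same site, and B cell sums are highest at steady state.

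Over the 18 libraries, which fall into 6 groups so that a correlation mostly reflects group levels, each gene had others that resembled it among 18156 genes. The 3 genes most like Cybb in log2 CPM were Hsd17b11, Ldlrad3 and Ano6 (Pearson r 0.986, 0.986 and 0.985), and those most like Cyba were Arpc1b, Xpnpep1 and Gnb2 (0.994, 0.992 and 0.986). Ncf1 was closest to Gusb, Fbh1 and Cmtm6 (0.983, 0.972 and 0.961), and Ncf4 to Pfkfb4, B430306N03Rik and Sqor (0.978, 0.974 and 0.970). Rac1 was closest to Arpc2, Sh3glb1 and Vdac1 (0.989, 0.989 and 0.987), and Rac2 to Slc1a5, Atp2a3 and Elmo1 (0.947, 0.945 and 0.944). Nos2 was closest to Mmp12, P4ha1 and Inhba (0.988, 0.987 and 0.984), and Hvcn1 to Cxxc5, Cd72 and Eml4 (0.977, 0.973 and 0.973). Among the 8 genes the closest pairs were Cyba with Rac1 (r 0.959) and Cybb with Ncf4 (0.956), Cyba with Ncf1 had 0.908, and Hvcn1 ran against Rac1 (-0.926) and Cyba (-0.878). None of the 8 was among the 3 nearest genes of another.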

How the data were processed

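The authors trimmed paired 100 base reads with Trim Galore after FastQC, aligned them to mm10 with TopHat2 and Ensembl release 87 gene models, and counted reads per gene with HTSeq under default settings. The deposited values are these raw counts, whole numbers for 49585 genes in 18 libraries, once 5 summary rows were removed. Tool versions are not given in the sources used here. Symbols, positions and exon lengths came from GENCODE release M21, which matched 49326 genes.

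The 12 inflamed libraries and the 12 lymph node libraries were fitted separately in edgeR 4.0.16 (R 4.3.3, limma 3.58.1) with TMM normalization, filterByExpr at a minimum count of 10 and group as the only factor. Quasi-likelihood F tests gave p-values, adjusted by the Benjamini-Hochberg method over all genes tested, 16777 and 17107. Calls required an adjusted p below 0.05 and a log2 fold change beyond 1 in either direction, the limits stated in the study's methods. Each standard error is the size of the log2 fold change over the square root of its F value. CPM and RPKM levels use TMM factors over all 18 libraries. Counts of 3 or fewer were taken as the floor, and counting intervals (95%) cover counting error only. Libraries of a group differed by more than sampling noise (chi-square over its degrees of freedom, 16.2 to 130.0). Scripts were tested on simulated data. Tables were made with Python 3.11.15, pandas 2.3.3 and matplotlib 3.10.9.

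The 8 genes and the lists were chosen with earlier results of these data known. Family genes are named, and of each other list up to 3 called genes per direction with the smallest adjusted p in the comparisons of migrated with nonmigrated or steady state cells. These genes are followed across further comparisons. Some genes that the rule covers are not reported here. Alternatives were an adjusted p under 0.001, DESeq2 size factors, the DESeq2 1.42.0 Wald test, no low count filter, a replicate block, other sets of libraries in the fit, and leaving out each library. Library preparation was not checked for strand here.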

Additional observations from a re-analysis of the deposited data

Results flagged for a closer look

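The effect of migration differed between sites for 2 of the 8 genes by a test of the difference itself (edgeR interaction, joint minus skin). In that test 6.13% of all genes were called. For Cybb the difference was -1.68 on the log2 scale (adjusted p = 0.0251), from a fall of 4.79 in the joint and 3.11 in skin. The Cybb call was lost when any of several single libraries was left out (adjusted p between 0.0501 and 0.0729). For Ncf1 it was -1.89 (adjusted p = 0.0131), from a fall of 1.87 in the joint and a difference of 0.02 in skin. Nos2 differed between sites in its contrast of migrated with steady state node cells by -7.87 (adjusted p = 0.000108), a test added after the values were seen, on 10 against 37 counts in the joint and 142 against 4 in skin. No explanation was tested for these results.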

How the results depend on the processing

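Of 1351 alternative fold changes of the 8 genes, 1316 kept their direction and their side of the threshold. At an adjusted p under 0.001, the genes called dropped to 1 between nonmigrated groups (Nos2), and to 0 between migrated groups, for the interaction of site and migration and between steady state groups. A fit of only the steady state groups called 0, since Nos2 did not pass its filter. Leaving out 1 library gave 1 to 2 calls for the interaction of site and migration and 0 to 1 between steady state groups. Small differences that were not called changed sign. Ncf1 between skin migrated and nonmigrated cells was -0.0046 with DESeq2 size factors and -0.0045 by the DESeq2 Wald test, and -0.11 to 0.29 when each library was left out. Other ranges with 1 library left out were -0.23 to 0.088 for Hvcn1 between nonmigrated groups, -0.047 to 0.28 for Cybb between migrated groups, -0.11 to 0.017 for Rac1 in the interaction of site and migration, -0.28 to 0.037 for Rac2 between joint migrated and steady state cells, and -0.10 to 0.093 for Rac2 and -0.043 to 0.10 for Rac1 between steady state groups. The cause was not tested.

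Counts over all genes moved by more than 1.5 times in some settings. At an adjusted p under 0.001 they were 3586, 3508, 511 and 0 (2770 at an unadjusted p under 0.05) for the first 4 comparisons of inflamed groups (joint and skin migration, then nonmigrated and migrated groups between sites), 20 for the interaction, 2714 for joint migrated against steady state, 246 between steady state groups and 152 for the added interaction. Between migrated groups the count was 191 as reported, 465 by DESeq2, 327 with no filter, 407 with all 18 libraries and 58 to 328 with a library left out. For the interaction of site and migration it was 1029 as reported, 1729 by DESeq2, 1664 with all 18 libraries and 582 to 2610 with a library left out, the highest without skin nonmigrated replicate 3, which also took the count between nonmigrated groups from 2400 to 3720. For the added interaction it was 1045, 666 with all 18 libraries and 695 without skin steady state replicate 2.

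The replicate numbers were not treated as pairs, since not every same-numbered pair exceeded a correlation of 0.1. Correlations of same-numbered libraries ran from 0.012 to 0.19 between migrated and nonmigrated cells (4 of 6 above 0.1) and from -0.15 to -0.014 between migrated and steady state cells. Every library correlated best with its own number in skin (3 of 3), 2 of 3 did in the joint, and 0 of 3 against steady state at either site. With the replicate block the members called were 5, 3, 3, 1, 2, 3, 4, 1 and 1 in the 9 comparisons, as without it. Depth limits Nos2 in joint migrated and steady state cells, where libraries held 14 counts or fewer.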
